A study of Mus musculus with 2 samples.

Results

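Imprinted genes are genes of which mainly the copy inherited from one parent is active. The 44 imprinted genes described here were taken from a fixed list of names, among 55413 genes of the GENCODE mouse annotation (release 21), of which 21938 are protein-coding. The rule that picks them uses names alone and no measured value, but the names were chosen with earlier results of these data known. All 44 names were found, 37 of them protein-coding and 7 noncoding. Genes on the same chromosome less than 1 Mb apart were put in 1 cluster, which gave 19 clusters. The chromatin was measured in frontal cortex of female B6CASTF1/J mice, an F1 hybrid of the C57BL/6J and CAST strains, aged 36 days. No treatment, other genotype or control group is given in the labels. The labels name 2 biological replicates of this 1 group with separate tissue records but with the same donor entry, and they do not say whether 2 animals were used. Differences between the replicates may therefore be technical in part. DNase-seq finds stretches of DNA that are open to cleavage by the nuclease DNase I, called peaks, and short protected stretches inside such regions, called footprints. The value of a peak is the authors' signal, a cleavage density normalized for read depth, and no count of reads or library total was analysed here.

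At most imprinted clusters a control region carries DNA methylation on the copy from one parent only, a mark set in the germ line and kept after fertilization. The zinc finger proteins ZFP57 and ZFP445 bind methylated control regions and recruit TRIM28, which keeps the mark in place. On the unmethylated copy the region often acts as the promoter of a noncoding RNA, as a promoter of the imprinted gene itself, or, at H19 and Igf2, as an insulator bound by CTCF. The files do not separate the 2 parental copies, so every value below is the sum over both. A signal from 1 open copy and a signal from 2 less open copies cannot be told apart in them.

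The sequences of the control regions are given first, because the peaks discussed below lie on them. They were read from the reference genome GRCm38, the build of the files (mm10), on the plus strand. Among the promoters that hold a control region, those with a shared peak were ranked by signal in replicate 2. Impact, whose highest peak in a promoter window, 3.29, would rank among the first, is not printed here. The highest 8 of the others were taken, and annotated untranslated bases were left out, after which 7 had a stretch of at least 100 bases. Capitals mark bases that lay inside a footprint of both replicates. The Kcnq1ot1 stretch is chr7:143296511-143296810, at the promoter of a long antisense RNA. The Peg3 stretch, chr7:6730422-6730582, spans the gap between the starts of Peg3 and Usp29, which are transcribed away from each other. The Mcts2 stretch is chr2:152686821-152687034 and belongs to a retrogene inside H13. The Peg13 stretch, chr15:72809901-72810160, belongs to a noncoding RNA gene inside Trappc9. The Snrpn stretch is chr7:60005112-60005240, at the start of the gene for the splicing protein SmN. The Mest stretch is chr6:30737901-30738049. For Inpp5f, an inositol phosphatase gene, the highest peak is at the 5′ end of the gene, chr7:128611061-128611359. The promoter inside the same gene, chr7:128688281-128688488, gives rise to the imprinted transcript and was added after its values were seen.
Kcnq1ot1 promoter: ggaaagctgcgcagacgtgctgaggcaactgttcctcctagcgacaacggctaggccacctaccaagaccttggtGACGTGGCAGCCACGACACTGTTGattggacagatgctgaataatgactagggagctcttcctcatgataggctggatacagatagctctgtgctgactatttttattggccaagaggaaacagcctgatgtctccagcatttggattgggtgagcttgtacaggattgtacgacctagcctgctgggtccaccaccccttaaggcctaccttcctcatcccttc
Peg3 and Usp29 promoter: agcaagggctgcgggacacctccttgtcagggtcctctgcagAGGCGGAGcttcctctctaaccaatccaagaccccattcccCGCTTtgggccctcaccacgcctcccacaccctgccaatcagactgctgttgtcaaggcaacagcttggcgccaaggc
Mcts2 promoter: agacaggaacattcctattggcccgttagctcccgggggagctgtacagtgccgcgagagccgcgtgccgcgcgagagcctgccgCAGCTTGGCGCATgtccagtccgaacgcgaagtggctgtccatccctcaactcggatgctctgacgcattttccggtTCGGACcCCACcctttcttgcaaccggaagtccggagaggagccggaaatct
Peg13 promoter: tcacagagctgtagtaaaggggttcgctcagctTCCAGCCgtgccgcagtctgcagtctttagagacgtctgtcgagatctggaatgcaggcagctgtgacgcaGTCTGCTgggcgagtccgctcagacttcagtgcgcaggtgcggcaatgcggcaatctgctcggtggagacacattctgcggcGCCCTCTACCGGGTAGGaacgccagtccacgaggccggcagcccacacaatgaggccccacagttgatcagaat
Snrpn promoter: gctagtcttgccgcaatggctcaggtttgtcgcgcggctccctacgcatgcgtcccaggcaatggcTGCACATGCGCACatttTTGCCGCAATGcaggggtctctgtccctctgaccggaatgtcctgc
Mest promoter: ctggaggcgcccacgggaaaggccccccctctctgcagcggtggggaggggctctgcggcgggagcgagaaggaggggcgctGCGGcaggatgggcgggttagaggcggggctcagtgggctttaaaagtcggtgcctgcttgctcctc
Inpp5f 5′ promoter: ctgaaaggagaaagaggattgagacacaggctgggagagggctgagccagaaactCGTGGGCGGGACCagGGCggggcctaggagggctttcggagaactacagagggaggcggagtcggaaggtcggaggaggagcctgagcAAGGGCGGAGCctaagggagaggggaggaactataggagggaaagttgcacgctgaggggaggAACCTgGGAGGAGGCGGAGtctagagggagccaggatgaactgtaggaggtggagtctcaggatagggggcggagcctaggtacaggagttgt
Inpp5f internal promoter: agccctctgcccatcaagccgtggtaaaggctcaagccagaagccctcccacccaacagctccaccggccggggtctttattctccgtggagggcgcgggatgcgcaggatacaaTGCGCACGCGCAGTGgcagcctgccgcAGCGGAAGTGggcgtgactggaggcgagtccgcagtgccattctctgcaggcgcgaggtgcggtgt

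The footprint bases shared by both replicates numbered 45 of 299 at the Inpp5f 5′ promoter, 31 of 260 at Peg13 and 25 of 208 at the Inpp5f internal promoter. They numbered 24 of 300 at Kcnq1ot1, 24 of 129 at Snrpn, 23 of 214 at Mcts2 and 13 of 161 at Peg3. At Mest 4 of 149 bases were shared. The 2 footprints of Snrpn that both replicates hold stand apart by 4 bases, and the one nearer the end of the printed stretch contains the letters TGCCGC, the core that ZFP57 recognizes when its CpG is methylated.

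Of the 44 imprinted genes, 29 (65.9%) had a peak within 500 bp of an annotated transcription start site in both replicates. Among the 37 protein-coding members the count was 27 (73.0%), beside 50.8% of all protein-coding genes. Over all genes of the annotation, noncoding ones included, the share was 24.1%. Of the 7 noncoding members, only Kcnq1ot1 and Peg13 had such a peak in both replicates, while Meg3, Airn and Mirg had one in replicate 2 alone. Replicate 2 held a promoter peak at 34 members and replicate 1 at 29, and no member had one in replicate 1 alone. Besides the 3 noncoding genes, Magel2 and Phlda2 had a promoter peak in replicate 2 alone. The 10 members without a promoter peak in either replicate were Ndn, H19, Igf2, Asb4, Ddc, Dlk1, Rtl1, Rian, Dio3 and Nnat. With the authors' longer peak lists 32 members had a promoter peak in both replicates. Of the protein-coding members 75.7% did, beside 57.9% of protein-coding genes. Footprints within 500 bp of a start site were present in both replicates at 31 members, 70.5%, beside 26.4% of all genes. For the protein-coding members the share was 73.0%, beside 55.1% of protein-coding genes. A gene with many start sites, such as Ube3a or Gnas with 16 each, has more windows in which a peak can count. The number of start sites was not matched in these comparisons. With the start site of the gene record alone, 21 of the 44 members had a promoter peak in both replicates. The share of protein-coding genes at that setting was not computed. These shares are descriptions of a chosen list and were not tested.

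**Figure D1:**
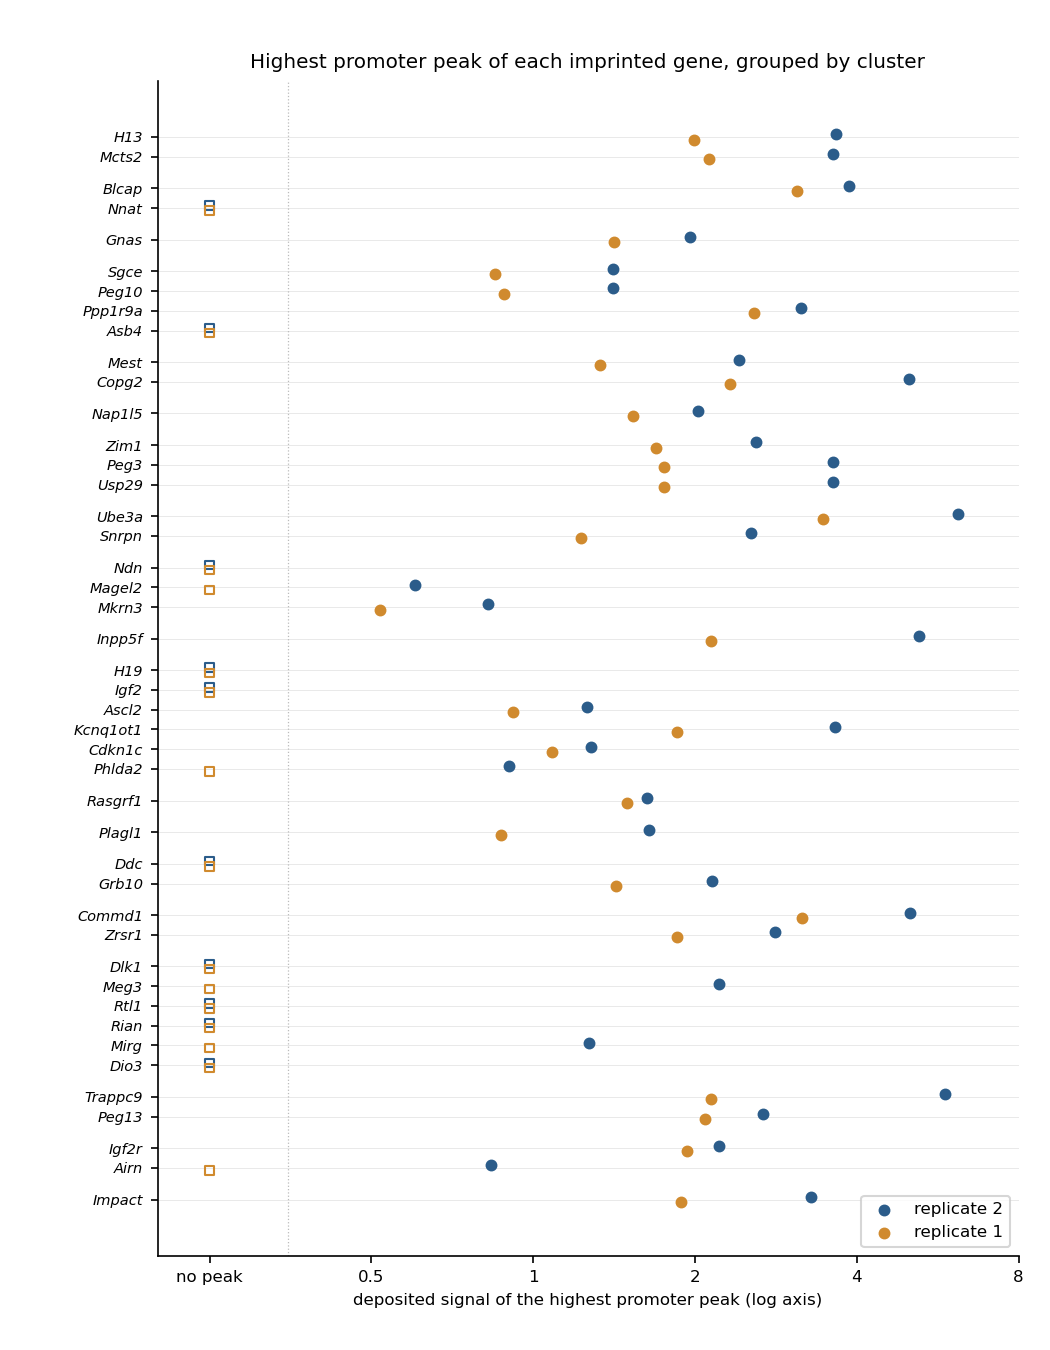
Signal of the highest peak within 500 bp of any start site of each imprinted gene (log axis), in replicate 2 (blue) and replicate 1 (orange), with genes in rows grouped by cluster and open squares where a replicate has no such peak. Ube3a is highest in replicate 2 at 6.17 and in replicate 1 at 3.46, and the Dlk1 to Dio3 cluster has no gene with a peak in both replicates.

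Within the gene bodies and 10 kb to each side, only Rian, a noncoding RNA gene that hosts small nucleolar RNAs, had no peak in either replicate. That is 1 of 44 members (2.27%), beside 43.9% of all genes of the annotation. None of the 37 protein-coding members lacked a nearby peak, beside 21.8% of protein-coding genes. The median member had 3.5 nearby peaks in replicate 2, 2 in replicate 1 and 2 that both shared. For protein-coding members alone the medians were 4, 3 and 2, against 2, 1 and 1 for protein-coding genes. Footprints in the same windows had a median of 15 in replicate 2 and 8 in replicate 1 for members, against 10 and 5 for protein-coding genes. Gene length was not matched in these comparisons. Together the windows held 153 peaks in replicate 2 and 93 in replicate 1, out of 66512 and 29700 in the whole lists. Each peak was placed by its midpoint, unlike the promoter counts above, where any overlap with the window counts. Of the replicate 2 peaks 56 were within 500 bp of a start site of any gene, 64 in introns, 23 intergenic and 10 in exons. Of the replicate 1 peaks 42 were at a start site, 32 in introns, 15 intergenic and 4 in exons. A window may reach a neighbour, and the promoters of Fignl1 near Ddc, Cct4 near Commd1, Mas1 near Airn and Herc3 at Nap1l5 are counted in these totals.

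**Figure D2:**
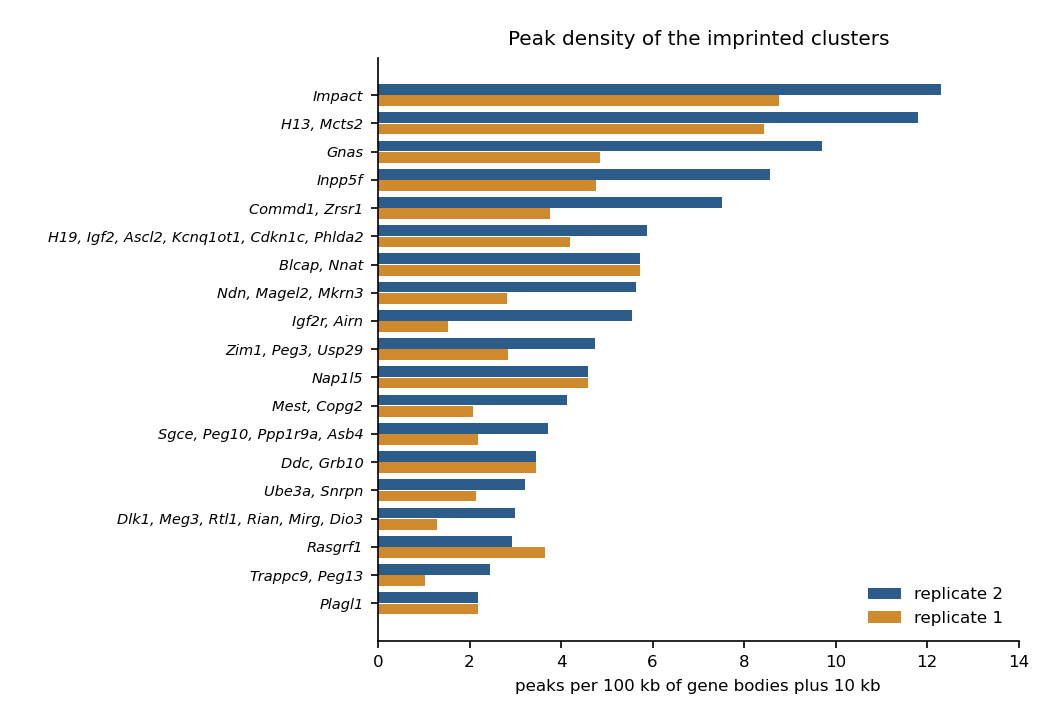
Peaks per 100 kb of gene bodies plus 10 kb to each side in the 19 imprinted clusters, in replicate 2 (blue) and replicate 1 (orange). The densest cluster is Impact, with 12.3 in replicate 2 and 8.76 in replicate 1. Rasgrf1 is the only one with more in replicate 1, 3.65, than in replicate 2, 2.92. Apart from its promoter peak, the Rasgrf1 peaks of replicate 1 had signals of only 0.212 to 0.271. They stood at or below the 0.359 percentile of that list and had no footprint and no replicate 2 partner.

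In the Peg3 cluster on chromosome 7, Peg3 encodes a Krüppel-type zinc finger protein, Usp29 a ubiquitin-specific protease and Zim1 another zinc finger protein. The start sites of Peg3 and Usp29 face away from each other under 1 peak that reached 3.62 in replicate 2 and 1.76 in replicate 1. Zim1, which is expressed from the maternal copy, had a promoter peak of 2.60 in replicate 2 and 1.70 in replicate 1. All 3 genes of this cluster thus had a promoter peak in both libraries. The first intron of Peg3, 3.68 kb long at chr7:6726575-6730257, held 5 peaks in replicate 2 and 4 in replicate 1. Their signals were between 2.23 and 3.67 in replicate 2 and between 0.895 and 1.97 in replicate 1, and in both the highest one exceeded the shared promoter. Some of these peaks overlap each other within 1 list.

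The first intron of Peg3 is known in the mouse for a row of sites for the factor YY1. The letters AANATGGCG, the YY1 core, were searched on both strands in the peaks of replicate 2 near imprinted genes and matched 13 times. Of these matches 9 lay in the first intron of Peg3, and all 9 had the same orientation, on the plus strand, against the direction of Peg3 transcription. A footprint overlapped 7 of the 9 in replicate 2, 3 in replicate 1 and 2 in both. Here and below, an overlap of 1 base counts. The footprints of the replicates need not touch the same bases of a match. The peak with the highest signal there, chr7:6729441-6729740, is printed with the 2 core matches it holds in capitals.
Peg3 first intron: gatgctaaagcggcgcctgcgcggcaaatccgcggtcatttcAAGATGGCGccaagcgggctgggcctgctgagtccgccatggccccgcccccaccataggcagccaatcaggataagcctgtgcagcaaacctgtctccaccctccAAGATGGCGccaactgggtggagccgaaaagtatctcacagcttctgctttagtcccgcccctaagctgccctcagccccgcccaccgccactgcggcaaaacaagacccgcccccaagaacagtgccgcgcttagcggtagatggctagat

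In 200 bp windows around the midpoints of shared peaks, the YY1 core stood in 5 of 85 near imprinted genes (5.88%) and in 2.59% of all shared peaks. A second spelling, AAGATGGC, overlaps the core at most sites and stood in 5.88% of those near members and 2.76% of all. Most matches in whole peaks lie in 1 intron of 1 gene, but the windows do not all come from there. Those with the core lie at Peg3, Mkrn3, Inpp5f and Ddc. Those with the second spelling lie at Peg3, Ddc, Inpp5f and Snrpn. With only 5 of 85 windows, these shares are not a result about the imprinted genes as a group.

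Ube3a and Snrpn lie at the locus whose human counterpart is altered in Angelman and Prader-Willi syndromes. Ube3a encodes a ubiquitin ligase that neurons express from the maternal copy, and it had the highest promoter peak of all members, 6.17 in replicate 2 and 3.46 in replicate 1. The value in replicate 2 stands at the 97.1 percentile of all peaks of that replicate. Snrpn, expressed from the paternal copy, had 2.54 in replicate 2 and 1.23 in replicate 1 at its main start site. An annotated start site 135108 bp farther upstream had only a weak peak of 0.427 in replicate 2 and none in replicate 1. Within the intron that follows the Snrpn promoter, the replicates shared 2 further weak peaks, with 0.553 and 0.884 in replicate 2 and 0.483 and 0.471 in replicate 1.

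The 3 intronless genes next in order differed in where their open chromatin lay relative to their annotated start sites. Mkrn3, which encodes a makorin protein that restrains the onset of puberty, had a promoter peak of 0.825 in replicate 2 and 0.518 in replicate 1, the lowest among members with a peak in both. Magel2, which encodes a partner of ubiquitin ligases, had 0.602 in replicate 2 and none in replicate 1. Ndn encodes necdin, a protein abundant in neurons, and had no peak within 500 bp of its 1 annotated start site. It had a peak inside the annotated exon 1722 bp from that start, where replicate 2 had 2.29 and replicate 1 had 1.19. Whether transcription of Ndn begins at the annotated start in this tissue was not examined. All 3 genes are expressed from the paternal copy.

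The H19 and Igf2 region has its control region upstream of H19, in a window set here at 1 to 5 kb from the start of the gene. Neither H19, a noncoding RNA gene, nor Igf2, a fetal growth factor gene, had a promoter peak. The control window held 3 peaks in replicate 2, with signals of 0.864, 1.02 and 0.922, and 2 in replicate 1, with 0.789 and 0.837. The letters GGNGGCAG, part of the CTCF site, were searched on both strands and are in capitals in the 3 stretches below; on the plus strand their reverse complement is seen. In the order printed, the stretches are chr7:142580297-142580440, chr7:142580641-142580822 and chr7:142581739-142581938.
H19 upstream, nearest: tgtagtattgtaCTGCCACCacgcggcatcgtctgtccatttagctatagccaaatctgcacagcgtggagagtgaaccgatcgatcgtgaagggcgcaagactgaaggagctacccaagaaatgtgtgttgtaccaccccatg
H19 upstream, middle: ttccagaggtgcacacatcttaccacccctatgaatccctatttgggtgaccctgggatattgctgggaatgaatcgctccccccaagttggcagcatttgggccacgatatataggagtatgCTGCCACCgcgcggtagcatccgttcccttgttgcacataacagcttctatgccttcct
H19 upstream, farthest: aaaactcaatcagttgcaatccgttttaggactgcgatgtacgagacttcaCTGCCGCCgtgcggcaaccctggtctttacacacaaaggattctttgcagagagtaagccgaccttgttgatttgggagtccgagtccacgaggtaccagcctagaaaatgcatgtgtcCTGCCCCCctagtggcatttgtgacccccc

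The 3 stretches hold 4 matches, all in the same orientation, with 2 of them in the peak farthest from H19. A footprint overlapped 1 match in replicate 2 and another match in replicate 1, and none was overlapped in both. All 3 peaks of replicate 2 here were below the median of the promoter peaks of imprinted genes, 1.83. In 200 bp windows the CTCF core stood in 3 of 25 shared peaks at control regions (12%), in 14.1% of shared peaks near imprinted genes and in 14.4% of all shared peaks. A longer spelling, CGNGGNGGC, which overlaps the core at some sites, stood in 5.88% of those near imprinted genes and 9.53% of all. Near Igf2 both replicates held a peak 9037 bp upstream, with 1.54 in replicate 2 and 1.08 in replicate 1.

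The neighbouring domain of chromosome 7 is governed by Kcnq1ot1, an RNA transcribed from the paternal copy that silences its neighbours in cis. Its promoter had 3.64 in replicate 2 and 1.85 in replicate 1. The 3 maternally expressed members of the domain had weaker promoter peaks. Cdkn1c, which encodes an inhibitor of cyclin-dependent kinases, had 1.28 in replicate 2 and 1.08 in replicate 1. Ascl2, a bHLH factor gene needed in the placenta, had 1.26 in replicate 2 and 0.919 in replicate 1. Phlda2, which limits placental growth, had 0.903 in replicate 2 and none in replicate 1. Promoter peaks of other genes of this domain were stronger than that of Kcnq1ot1, with 6.60 in replicate 2 and 3.61 in replicate 1 at Tssc4, and 9.50 in replicate 2 and 7.41 in replicate 1 at Nap1l4. Upstream of Cdkn1c stood 2 shared peaks that exceeded its promoter. The one 5461 bp upstream had 2.66 in replicate 2 and 1.83 in replicate 1, and the one 3031 bp upstream had 2.37 in replicate 2 and 1.34 in replicate 1. Each of the 2 holds a CTCF core match that a footprint overlapped in both replicates, and 4 of the 19 CTCF core matches in peaks near imprinted genes had that.

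Inpp5f had 2 separate promoters with a peak in both replicates. The 5′ promoter, printed above, had 5.21 in replicate 2 and 2.14 in replicate 1. The internal promoter 76218 bp downstream had 2.50 in replicate 2 and 1.20 in replicate 1. The highest peak of the gene was neither of these but lay in the intron 1882 bp past the internal start, with 5.62 in replicate 2 and 2.85 in replicate 1.

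**Figure D3:**
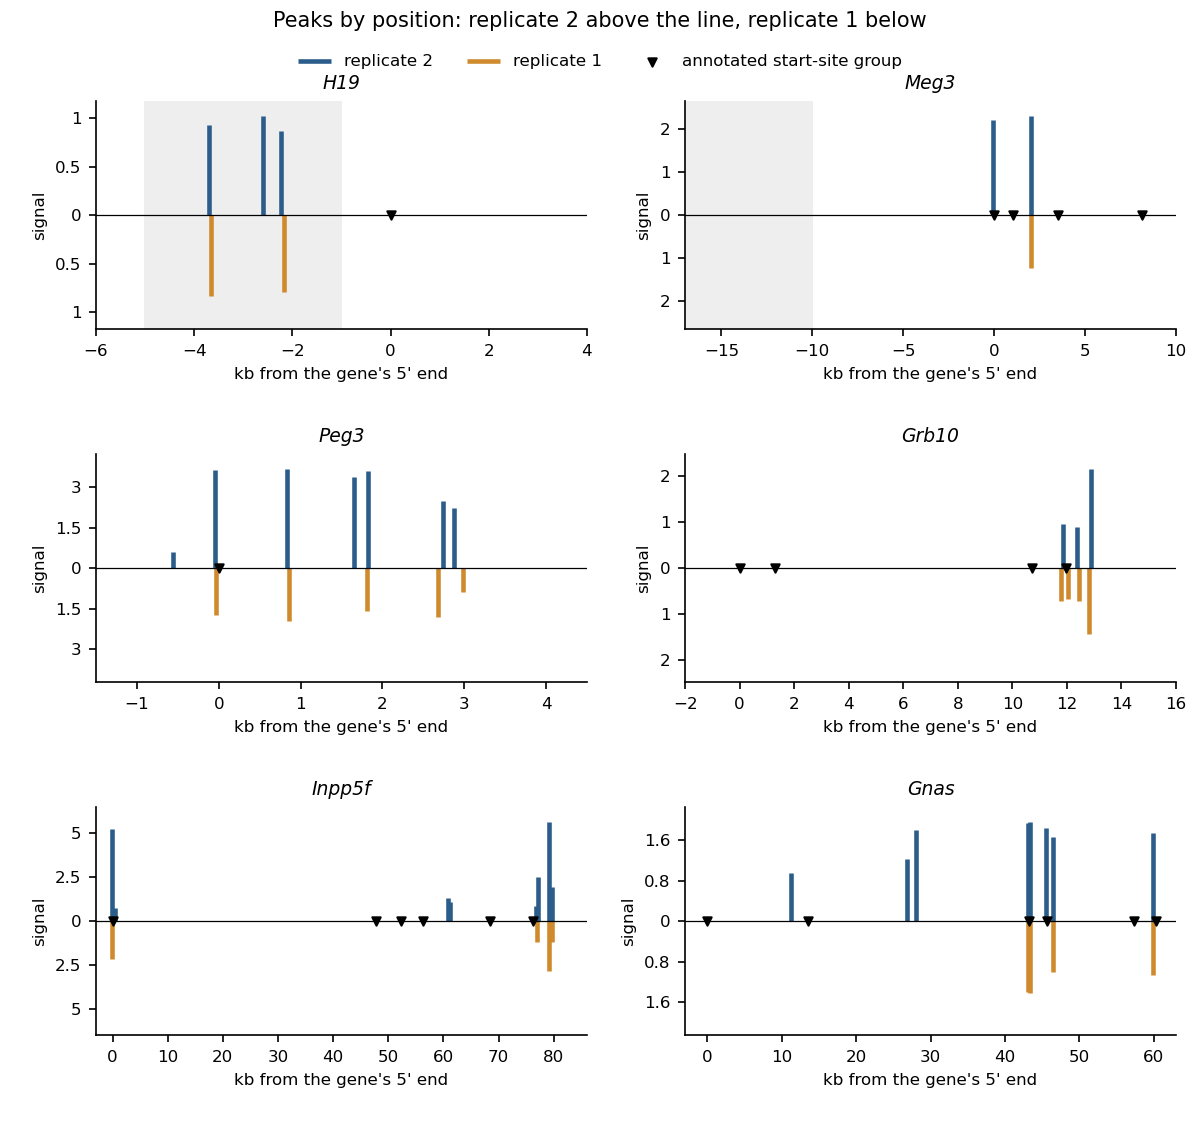
Peaks of 6 imprinted genes by the distance of their midpoint from the 5′ end of the gene in kb, with the signal of replicate 2 drawn upwards (blue) and that of replicate 1 downwards (orange), black triangles at annotated start-site groups, and grey shading over the upstream control windows of H19 and Meg3. The grey window of H19 holds 3 peaks in replicate 2 and 2 in replicate 1, that of Meg3 holds none, and the peaks of Grb10 gather at a start site 11951 bp inside the gene.

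The Dlk1 to Dio3 cluster on chromosome 12 stood apart as the cluster of 6 genes in which none had a promoter peak in both replicates. Its windows of 233 kb held 7 peaks in replicate 2 and 3 in replicate 1. Dlk1 encodes a membrane protein related to Notch ligands, Rtl1 a protein derived from a retrotransposon and Dio3 the deiodinase that inactivates thyroid hormone. None of these 3 paternally expressed genes had a promoter peak in either replicate. Meg3, a noncoding RNA gene expressed from the maternal copy, had a promoter peak of 2.21 in replicate 2 and none in the main list of replicate 1, though the longer list of replicate 1 gave 0.87 there. A peak in an exon of Meg3, 783 bp from the nearest start site, was in both replicates, with 2.31 in replicate 2 and 1.24 in replicate 1. In intergenic sequence 2007 bp from the nearest start site of Mirg, a host of microRNAs, a shared peak had 2.96 in replicate 2 and 1.23 in replicate 1. The intergenic control region of this cluster was looked for at 10 to 17 kb upstream of Meg3. That window held no peak in either list of either replicate, no footprint and no interval of the cleavage table with an FDR up to 0.05. The same was true of the window 25 to 35 kb upstream of Rasgrf1, where the control region of that gene lies. For these 2 windows a region without open chromatin and one with too few mapped reads cannot be told apart.

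Several control regions lie at the promoter of a gene inside or beside another gene, and 6 pairs of overlapping or neighbouring genes were set side by side after their values were seen. Only peaks of the 1 gene alone were counted, so a peak within 500 bp of start sites of both was left out. Mest, a paternally expressed hydrolase gene, had 2.42 in replicate 2 and 1.33 in replicate 1, and its neighbour Copg2, a coatomer subunit gene, had 5.01 and 2.32. Zrsr1, a retrogene related to a splicing factor, had 1.80 in replicate 2 and 1.16 in replicate 1, and Commd1, in whose intron it lies, had 5.02 and 3.17. Airn, the antisense RNA gene that silences Igf2r in many tissues, had 0.835 in replicate 2 and none in replicate 1, and Igf2r, a receptor that clears IGF2, had 2.21 and 1.93. In these 3 pairs the gene with the control region had the weaker peak, or none, in each replicate. Mcts2 and H13, which encodes a signal peptide peptidase, were close, with 3.62 for Mcts2 and 3.66 for H13 in replicate 2, and 2.12 for Mcts2 and 1.99 for H13 in replicate 1. Peg13 and Trappc9, which takes part in vesicle transport, had 2.68 for Peg13 and 5.85 for Trappc9 in replicate 2. In replicate 1 they were close, with 2.09 for Peg13 and 2.14 for Trappc9. Nnat, which encodes a small membrane protein of neurons, had no peak in either main list, while Blcap, whose transcripts surround it, had 3.86 in replicate 2 and 3.10 in replicate 1. The longer list gave Nnat 1.06 in replicate 2. These differences were not tested.

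**Figure D4:**
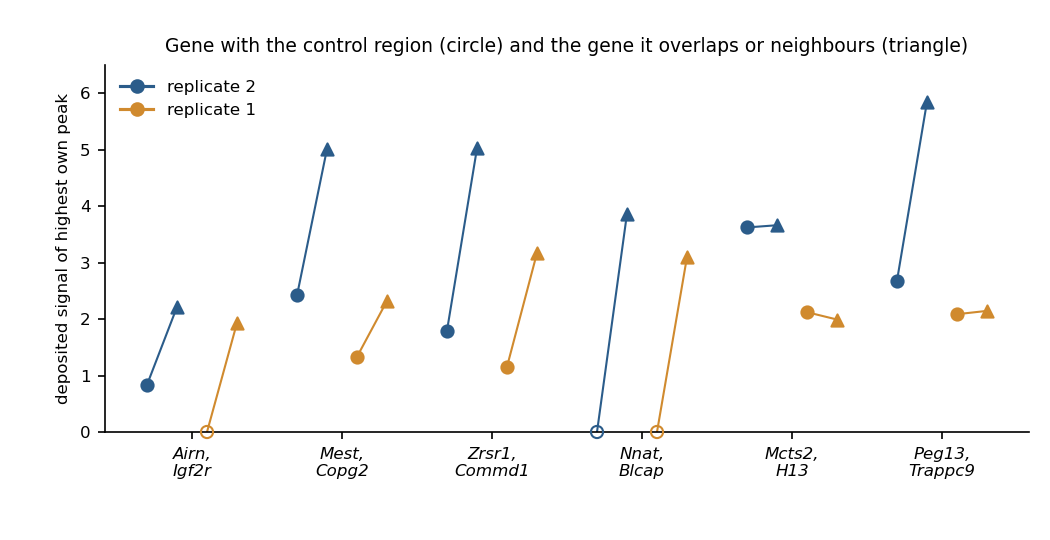
Signal of the highest promoter peak that belongs to 1 gene alone, for 6 genes whose promoter holds a control region (circles) and the genes they overlap or neighbour (triangles), in replicate 2 (blue) and replicate 1 (orange), with open circles at 0 where there is no peak. The circle is below the triangle in both replicates for Mest, Zrsr1, Airn, Nnat and Peg13, by little for Peg13 in replicate 1 (2.09 against 2.14), and the 2 are close for Mcts2.

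At other genes the annotated start site that was open was not the one at the 5′ end. Grb10 encodes an adaptor that restrains insulin signalling, expressed from the maternal copy in most tissues and from the paternal copy in neurons. It has 8 groups of start sites, and the group 11951 bp inside the gene alone had peaks, 3 in replicate 2 and 4 in replicate 1. The highest had 2.16 in replicate 2 and 1.43 in replicate 1, while the 5′ end had no peak or footprint in either. Plagl1, a zinc finger factor gene, had its peak at the group 30187 bp inside, with 1.64 in replicate 2 and 0.872 in replicate 1. Mest had peaks at the group 14503 bp inside and at none of the other 5. Ppp1r9a, which encodes neurabin, an actin-binding protein of dendritic spines, had 3.15 in replicate 2 and 2.58 in replicate 1 at a group 207742 bp inside. Its 5′ end had a peak of 1.27 in replicate 2 alone.

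Gnas encodes the stimulatory G protein alpha subunit and gives different transcripts from different parental copies. Of its 6 start-site groups, the group 43250 bp inside had 1.96 in replicate 2 and 1.41 in replicate 1. The group 45686 bp inside had 2 peaks in replicate 2. One, at 1.85, had no partner in replicate 1, and the other, at 1.66, overlapped a replicate 1 peak of 1.00 centred 540 bp from the nearest start site, just outside the window. Both replicates held footprints at this group, 9 in replicate 2 and 10 in replicate 1. The group 60330 bp inside had a shared peak, with 1.75 in replicate 2 and 1.07 in replicate 1. The first 2 groups had no peak in either replicate.

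The remaining members are given in brief. Peg10 and Sgce, a retrotransposon-derived gene and the epsilon-sarcoglycan gene, are transcribed away from each other. In replicate 2 a peak of 1.41 spanned start sites of both. In replicate 1 the peak of 0.848 at Sgce did not overlap it. Peg10 had a further promoter peak that the replicates shared, with 0.913 in replicate 2 and 0.884 in replicate 1. Of the 29 members with a promoter peak in both replicates, Sgce is the only one whose peaks do not overlap between them. The highest peak of this pair, 4.20 in replicate 2 and 1.97 in replicate 1, was in the Peg10 gene 1945 bp from the start in replicate 2. Asb4, which encodes an ankyrin-repeat protein of ubiquitin ligases, had shared peaks 635 bp upstream and 945 bp downstream of its start and so just missed the window. Nap1l5, a retrogene in an intron of Herc3, had 2.03 in replicate 2 and 1.53 in replicate 1. Rasgrf1, an exchange factor for Ras in neurons, had 1.63 in replicate 2 and 1.5 in replicate 1 at its promoter, and only this one of its nearby peaks was shared. Impact, a regulator of the translation control kinase GCN2, had 3 promoter peaks shared by the replicates. The highest, with 3.29 in replicate 2 and 1.89 in replicate 1, reached a promoter window only with its edge. Its midpoint in replicate 2 lay in an intron, 827 bp from the nearest start site. The shared peak centred 61 bp from a start site had 2.34 in replicate 2 and 1.23 in replicate 1. Ddc, the aromatic amino acid decarboxylase gene, had no promoter peak at any of its 6 start-site groups.

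Counted over the control regions, 15 of 19 had a peak in both replicates. Of the 16 at promoters 14 did, and Airn and Nnat did not. Of the 3 upstream regions only that of H19 did. For promoter windows of the same size, the share was 50.8% of all protein-coding genes and 24.1% of all genes of the annotation. The number of start sites was not matched. A promoter region was counted over all start sites of its gene, so at genes with several, such as Gnas and Inpp5f, the peak need not lie on the methylated stretch itself. The parental copy that each member expresses was taken from textbook knowledge and not from these files. A promoter peak in both replicates was present at 15 of 23 paternally expressed members and 9 of 15 maternally expressed ones. It was present at 5 of 6 whose expressed copy depends on the tissue or transcript. These counts stand beside the same 50.8% of protein-coding genes and 24.1% of all genes. The classes mix coding and noncoding members, and a difference between them was not tested.

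The letters TGCCGC, the ZFP57 core, were searched on both strands. In 200 bp windows they stood in 11 of 25 shared peaks at control regions (44%) and in 12 of 39 shared promoter peaks of imprinted genes (30.8%). Among all shared promoter peaks the share was 17.9%, and among all shared peaks 13%. In whole peaks of replicate 2 near imprinted genes there were 54 matches. A footprint overlapped 13 of them by 1 base or more in replicate 2, 11 in replicate 1 and 6 in both. Some matches touch a footprint only at its edge, as the capitals of the Mcts2 stretch show. The Peg13 and Mcts2 stretches above hold 3 matches each, and the Snrpn stretch holds 2. The NRF1 site GCGCATGCG reads nearly the same on both strands and can match on both with a shift of 1 base. It stood in 4 of 85 shared peaks near imprinted genes (4.71%) and in 1.73% of all. Among shared promoter peaks it stood in 1 of 39 of imprinted genes (2.56%) and in 2.78% of all. With so few windows, these NRF1 shares are not a result about the imprinted genes as a group. In whole peaks the NRF1 site matched 7 times. A footprint overlapped 4 of these matches in both replicates, in the peaks at Fignl1 beside Ddc, Ndn and the start site that Commd1 and Zrsr1 share. A match of letters is not evidence of a bound protein.

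The CpG ratio, the observed over the expected number of CpG, had a median of 0.806 in 39 shared promoter peaks of imprinted genes (quartiles 0.597 and 0.91). In 25 shared peaks at control regions it was 0.815, and in all 14508 shared promoter peaks 0.816. The medians differ by less than the spread within each set. Member promoter peaks had a median signal of 1.83 (quartiles 1.04 and 2.66) in replicate 2, against 1.92 (1.06 and 3.87) for all promoter peaks. In replicate 1 the medians were 1.41 (0.954 and 1.93) for members and 1.71 (1.07 and 2.63) for all. These medians too differ by less than the spread within each set. Over all peaks near members the median was 1.39 in replicate 2, against 1.17 in the whole list, and 1.23 in replicate 1, against 1.34 in the whole list.

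Replicates were compared at the same peaks. Of the 93 replicate 1 peaks near imprinted genes, 85 (91.4%, 95% Wilson interval 83.9 to 95.6%) had a replicate 2 partner, that is, a peak with 1 bp or more in common, and the whole list had 92.5%. Of the 153 replicate 2 peaks 85 had a partner, 55.6% (47.6 to 63.2%), where the whole list had 40.7%. The intervals cover counting error only. At the 85 shared peaks the median log2 ratio of replicate 2 over replicate 1 was 0.64 (quartiles 0.38 and 0.90), or 1.56-fold, and 83 were higher in replicate 2. At all 27469 shared peaks the median was 0.69, and 96.4% were higher in replicate 2, near the 97.6% of those near imprinted genes. Among promoters the ratio was highest at Trappc9, 1.45, and Inpp5f, 1.28, which stand at the 99.1 and 96.6 percentiles of all shared promoter peaks. It was lowest at a second Blcap promoter, -0.04, and at a second peak of Copg2, -0.02. The peak with the highest signal near any member in replicate 2 lay 6567 bp upstream of Trappc9, with 8.20 in replicate 2 and 3.19 in replicate 1. In replicate 1 the Ube3a promoter was higher, at 3.46.

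**Figure D5:**
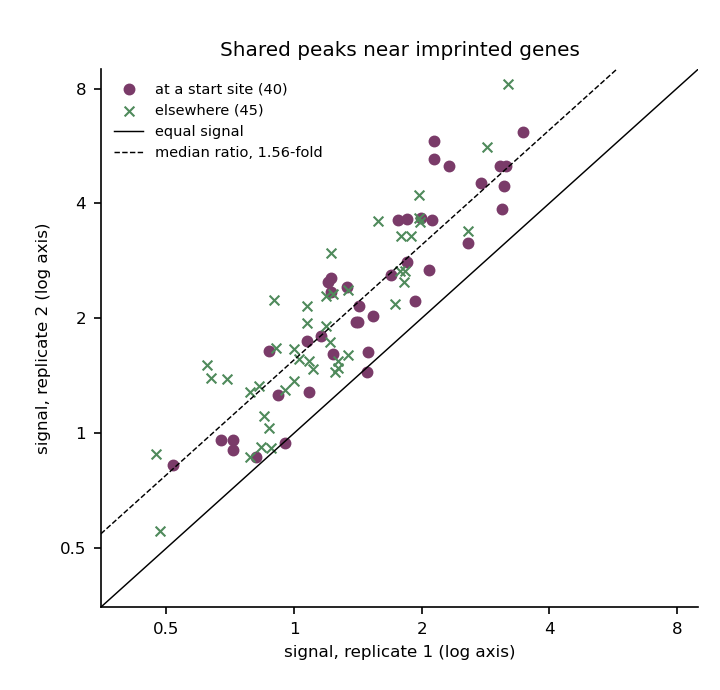
Signal in replicate 2 against signal in replicate 1 (log axes) of the 85 shared peaks near imprinted genes, with lines at equal signal and at the median ratio. Circles (40) have the midpoint of the replicate 1 peak within 500 bp of a start site of any gene, and crosses (45) lie elsewhere. Most points lie above the line of equal signal, and 83 of the 85 do so, as do 96.4% of all shared peaks.

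The genes that set and keep imprints were read in the same way, from a list of 15. A promoter peak in both replicates was present at 8, namely Zfp445, Trim28, Setdb1, Dnmt1, Uhrf1, Kdm1b, Smchd1 and Yy1. Ctcf had one in replicate 2 alone. Zfp57, Dnmt3a, Dnmt3l, Ctcfl, Dppa3 and Zfp42 had none. The count of 8 of 15 is near the 50.8% of all protein-coding genes and is no result about the list. Among 36 further imprinted genes or neighbours that were found, 11 had a promoter peak in both replicates, 10 had one in replicate 2 alone and 15 in neither. The share with a peak in both was below the same 50.8%, whereas that of the 44 members, 65.9%, was above it. The higher share of the members thus did not extend to this second list. The tissue label was checked with promoter peaks of marker genes. A peak in both replicates was present at 5 of 10 markers of cortical excitatory neurons, 3 of 5 of astrocytes and 1 of 5 of oligodendrocytes. None of 6 markers of inhibitory neurons, 4 of microglia, 4 of vascular cells, 3 of choroid plexus and 3 of liver had one. Outside the list for excitatory neurons, replicate 2 alone had a peak at Pvalb of the inhibitory neurons, Mbp and Olig2 of the oligodendrocytes and Alb of liver. The share for excitatory neurons is near the 50.8% of all protein-coding genes, so these counts do not establish the tissue. Fewer cells of a type and less open chromatin per cell cannot be told apart in such tissue.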

How the data were processed

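DNase-seq was measured in 2 replicates of 1 group. The files are on mm10 and, per the deposited text listing, each was made from 1 library. For aligner and callers, names and settings were not given in the sources used here. Peaks carry the authors' signal, a density normalized for read depth. The deposited p-value columns are an FDR that ends at 0.05 in the cleavage table and a constant 0.01 in the footprint list, which gives no rank. Read depth is unknown. Of the 2 peak lists per library the one with fewer peaks was the main list.

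Genes came from GENCODE release 21 and sequence from GRCm38, both on the C57BL/6J reference, and how well reads of the CAST copy map to it was not examined. Promoter windows reached 500 bp from any start site, neighbourhoods 10 kb, and peaks were shared at 1 bp of overlap. CpG ratios and motif shares used 200 bp around midpoints. Start sites less than 1000 bp apart formed a group. Control regions were promoter windows or, at H19, Meg3 and Rasgrf1, upstream windows set from textbook knowledge. Each member is named. Values in both replicates are given for the highest promoter peak of each cluster, for the control regions and for other members with a peak, and sequences for 7 of the 8 control promoters with the highest shared signal, Impact not counted. The H19 and Peg3 intron stretches were added after their values were seen. Members, gene lists and motifs were chosen with earlier results of these data known. No test between groups was possible. Alternatives were other windows, lists, overlaps and single replicates. Python 3.11.15, numpy 2.4.6, pandas 2.3.3, scipy 1.17.1 and matplotlib 3.10.9 were used. The overlap, window and CpG code was tested on simulated data.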

Additional observations from a re-analysis of the deposited data

How the results depend on the processing

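Of 48 values of the 8 main results under alternatives, 38 stayed within the limit set for them (1.5 times for counts, the spread between replicates or the interval for the rest). The percent of replicate 1 peaks near members with a partner was 91.4%, and it was 82.2% with the longer lists, 100% among the top 50% of peaks by signal, 74.2% with the replicate 2 list shortened, and 64.5% at 50% of each peak. The count of members without a nearby peak was 1, and it was 7 with the gene body alone, 0 at 50 kb, 7 among the top 50% of peaks and 4 with the replicate 2 list shortened. It was 1 without replicate 1 and 4 without replicate 2. The median of shared nearby peaks was 2, against 3.5 when replicate 1 was left out and 2 when replicate 2 was left out. It was 3 at 50 kb and with the longer lists, and it was 1, the main value of protein-coding genes, with the gene body alone, the top 50% of peaks, the replicate 2 list shortened or 50% overlap. Members with a promoter peak in both were 21 to 32 over the settings that keep both replicates, and 29 to 34 when one was left out. The count of 21 came with the start site of the gene record alone and with the top 50% of peaks. Over all settings the count was 26 to 35 for promoter footprints and 10 to 16 for control regions, and when one replicate was left out it was 31 to 35 and 15 to 16. The cause of these shifts was not tested. No paired analysis was possible because there is only 1 group. Alleles, read totals and the number of animals limit what these files can show.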
